A study of Homo sapiens with 6 samples.

Results

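The genes described here are 28 genes of the ATF4 response and 17 genes for aminoacyl-tRNA synthetases that charge tRNA in the cytosol, together 45 of the 59565 loci in the count table. They were selected by name, from the pathway they belong to, and each of the 45 symbols matched 1 Ensembl identifier. The counts came from 6 RNA-seq libraries of C4-2, an established line of human prostate cancer that descends from LNCaP. The Enz-R group held 3 libraries of an enzalutamide-resistant C4-2 line, and the parental group held 3 libraries of C4-2 parental cells. Enzalutamide is a drug used against prostate cancer. The labels state neither how the resistant line was made, nor whether it is a single clone, nor whether the drug was present when RNA was taken, and they give no treatment for the parental cells.

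ATF4 is a transcription factor of the integrated stress response. Kinases that sense missing amino acids, misfolded protein, viral RNA or lack of heme phosphorylate the initiation factor eIF2, which lowers protein synthesis in general and raises translation of ATF4 mRNA. ATF4 then binds, often as a dimer with a C/EBP protein, to composite C/EBP-ATF response elements and induces genes for amino acid synthesis, amino acid uptake, tRNA charging and, under prolonged stress, cell death. Growth signalling through mTORC1 also raises ATF4, and ATF4 has been linked to the growth of prostate cancer cells. Because ATF4 is controlled largely in translation, its mRNA level does not give its protein level.

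Library totals ran from 15673404 to 23351394 counts in Enz-R and from 19400321 to 28247038 in parental cells. Mitochondrially encoded genes took 14.5% to 15.5% of the counts in Enz-R libraries and 8.78% to 11.3% in parental libraries. All 8 luminal prostate markers checked, among them KLK3 and FOLH1, were detected in every library. Their summed level was 5004 to 5252 CPM in Enz-R and 7845 to 8381 CPM in parental libraries, where CPM is a count relative to library size after TMM scaling in edgeR. The 12 markers of leukocytes, endothelium, fibroblasts and basal epithelium summed to 49.8 to 58.1 CPM in Enz-R and 64.8 to 66.2 CPM in parental libraries. Of these, COL1A1 made up 43.1 to 51.8 CPM in Enz-R and 53.5 to 57.1 CPM in parental libraries, and the leukocyte gene PTPRC reached at most 0.228 CPM in Enz-R and 0.0488 CPM in parental libraries. Separate cultures are not named in the labels, so the p-values reflect spread among the 6 libraries alone, and that spread may be technical.

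Transcripts of the ATF4 response and of the cytosolic synthetases were mostly lower in Enz-R than in parental cells. All 45 genes passed the filter on low counts. Of the 45, 36 were lower in Enz-R, 4 were higher and 5 were not called. A call means a Benjamini-Hochberg adjusted p under 0.05 over the 19029 genes tested, from the quasi-likelihood test of edgeR. Among all tested genes 32.3% were lower and 32.4% were higher. The median log2 fold change of Enz-R over parental was -0.52 over the 45 genes and 0.011 over all tested genes. It was -0.062 over the 10373 tested genes that averaged at least 10 CPM.

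Larger falls showed the same lean. Of the 45 genes, 22 were lower by at least 1.5-fold and 10 by at least 2-fold, against 17.6% and 8.66% of all tested genes. At least 1.5-fold rises were found for 2 of the 45, DDIT3 and NUPR1, against 20.2% of all tested genes. All 3 Enz-R libraries lay below all 3 parental libraries for 37 of the 45 genes, and above them for 4, against 34.7% and 34.2% of all tested genes. The groups overlapped for CEBPB, CEBPG, JDP2 and CBS. In bulk RNA, fewer cells of a kind and less RNA per cell cannot be told apart.

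**Figure D1:**
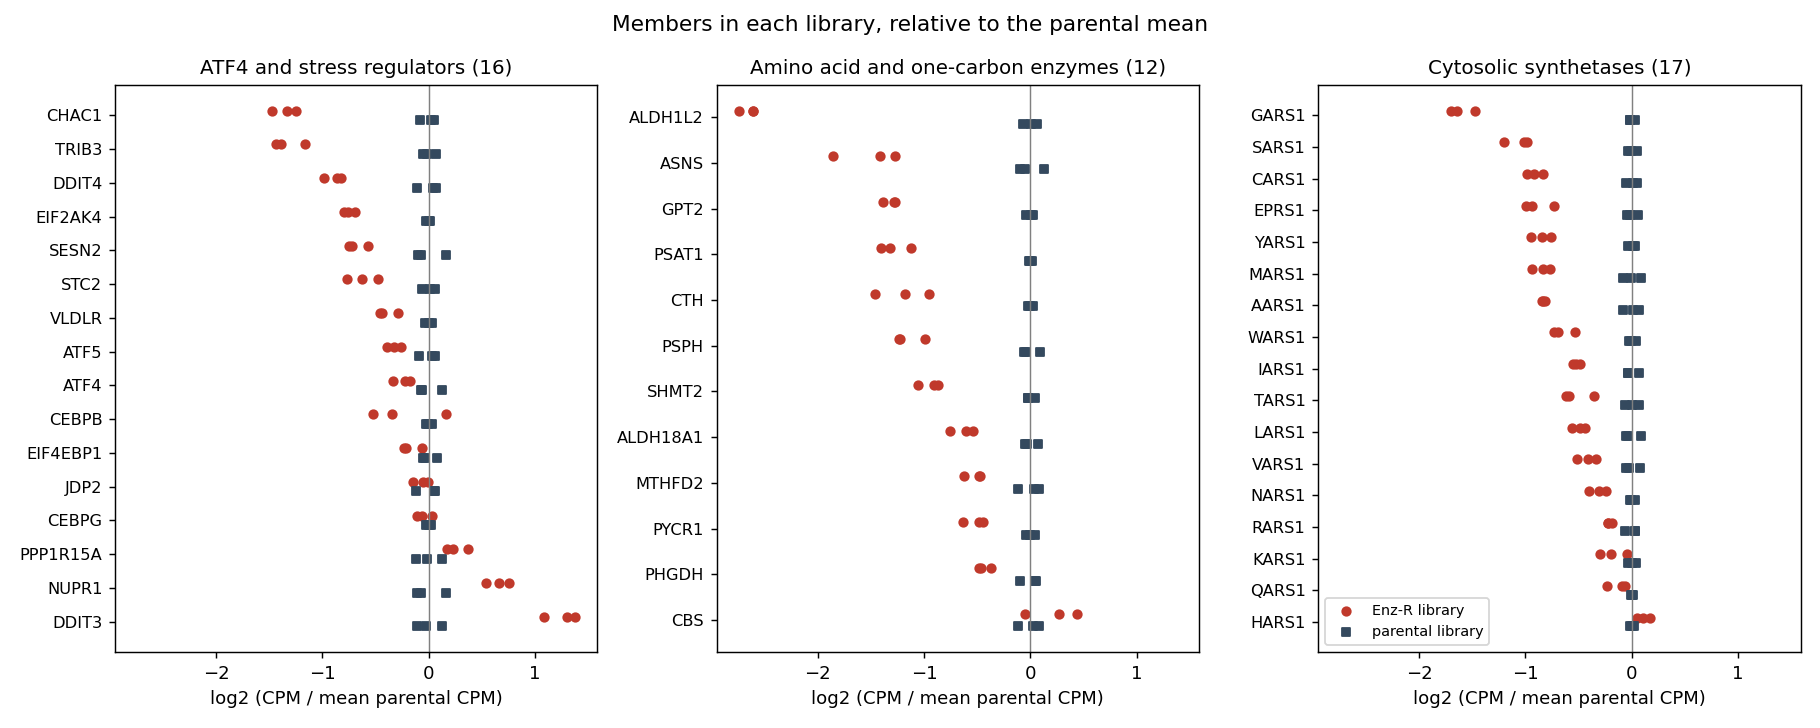
Each row is 1 gene and each point 1 library, placed by the log2 ratio of its CPM to the mean CPM of the 3 parental libraries; circles are Enz-R and squares parental libraries. Most Enz-R points lie left of all parental points in the same row. Those of DDIT3, NUPR1, PPP1R15A and, by a small margin, HARS1 lie to the right.

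The genes differ in what their promoters share. The ATF4 response element has the core TGATGNAA, where N is any base, and reads TTNCATCA on the other strand. Both were searched in windows from 250 bases before to 50 bases after each start in RefSeq (GRCh38.p14), where a gene can have several starts. Of the 45 genes, 35 had a promoter entry, and 11 of these, or 31.4%, held the core in at least 1 window. Over the 12006 tested genes with an entry the share was 2.72%, with 1.51 windows per gene among the 35 and 1.44 among tested genes. By role, the core was found for 7 of 14 synthetase genes, 1 of 7 enzyme genes and 3 of 14 regulators. A match describes letters in a window and shows no binding.

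The 11 sites are given to make that shared core visible, each read on the strand that carries it, with 6 flanking bases on both sides and the core in capitals. They are ordered from the largest fall in Enz-R to the smallest change.
GARS1: ggagcaTGATGAAAtcgccg
ASNS: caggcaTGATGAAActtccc
CHAC1: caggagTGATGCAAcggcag
CARS1: agaatcTGATGCAAccgccg
MARS1: cctcgcTGATGCAAccggaa
AARS1: cttggcTGATGCAActgcga
IARS1: cggaggTGATGCAAcgcgct
TARS1: accagcTGATGCAAtcgaaa
NARS1: gctctcTGATGCAAcgccgg
JDP2: cggggcTGATGCAAcccgtc
CEBPG: ggcgtcTGATGCAAcctgcc

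The letter at the open position of the core was A in GARS1 and ASNS and C in the other 9 sites. On GRCh38.p14, with the strand that carries the core, the 3 sites with the largest falls lie for GARS1 at chr7:30594839-30594858 (minus), ASNS at chr7:97872463-97872482 (minus) and CHAC1 at chr15:40953256-40953275 (minus). Those of the other synthetase genes lie for CARS1 at chr11:3057412-3057431 (plus), MARS1 at chr12:57488058-57488077 (minus), AARS1 at chr16:70289680-70289699 (plus), IARS1 at chr9:92293697-92293716 (plus), TARS1 at chr5:33440961-33440980 (minus) and NARS1 at chr18:57621809-57621828 (minus), and the remaining ones for JDP2 at chr14:75428000-75428019 (plus) and CEBPG at chr19:33374065-33374084 (plus). Counted from the start, the first base of the core in the gene's own reading direction stood at -209 in CHAC1 and -187 in AARS1, at -68 in ASNS, and between -42 and 14 in the other 8 genes. The first 9 genes were lower in Enz-R, and JDP2 and CEBPG were not called. Of the 35 genes with an entry, 27 were lower, with or without the core. The core was found for 33.3% of these 27, against 31.4% of the 35, so the shares were nearly equal. A link between the core and the change was not tested. The median log2 fold change was -0.83 over the 11 genes with the core and -0.48 over the 24 with an entry and no match.

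The promoter windows of the synthetase gene and the enzyme gene with the largest falls among these 11 are given in full, with the core in capitals. That of GARS1 is chr7:30594628-30594927 on the plus strand and that of ASNS is chr7:97872359-97872658 on the minus strand, both on GRCh38.p14 and read 5′ to 3′ toward the gene.
GARS1: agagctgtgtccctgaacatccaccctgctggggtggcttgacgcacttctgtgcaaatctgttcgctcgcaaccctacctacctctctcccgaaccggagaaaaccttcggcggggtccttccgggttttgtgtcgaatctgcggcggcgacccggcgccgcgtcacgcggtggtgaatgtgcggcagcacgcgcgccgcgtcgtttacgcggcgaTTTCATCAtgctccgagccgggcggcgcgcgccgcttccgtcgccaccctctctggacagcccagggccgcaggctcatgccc
ASNS: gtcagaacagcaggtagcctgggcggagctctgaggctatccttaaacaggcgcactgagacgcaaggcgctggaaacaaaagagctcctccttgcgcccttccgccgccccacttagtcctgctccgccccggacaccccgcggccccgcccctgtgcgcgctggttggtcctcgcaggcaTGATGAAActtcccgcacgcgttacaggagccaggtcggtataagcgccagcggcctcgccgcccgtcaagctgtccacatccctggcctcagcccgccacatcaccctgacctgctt
In this reading direction the ASNS window carries the core as searched and the GARS1 window carries its reverse complement.

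Regulators came first in the order of the pathway. Of 16 genes for ATF4, its partners and stress regulators, 10 were lower, 3 higher and 3 not called, with a median of -0.28, or -0.45 after a correction for GC content and length. Among all tested genes, 32.3% were lower and 32.4% higher. ATF4 itself (ENSG00000128272, chromosome 22, 39519695 to 39522685 on GRCh38) had 704, 631 and 682 CPM in the Enz-R libraries, against 869, 763 and 761 CPM in the parental libraries. The Enz-R libraries all lay below the parental ones, by a small margin (log2 fold change -0.25 ± 0.073, adjusted p = 0.00819). Without Enz-R replicate 2 the gene was no longer called (adjusted p = 0.0553). Per kilobase of its longest annotated transcript, ATF4 had the highest level of the 45 genes, 333 in Enz-R and 395 in parental cells (CPM per kilobase). Its paralog ATF5, another transcription factor of the stress response, was also slightly lower (-0.32 ± 0.091). Of the exon bases of ATF5, 21.2% overlap NUP62, which is read in the opposite direction, and counts from that stretch are uncertain where strand is not used. NUP62 was higher (0.24 ± 0.059).

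The kinase GCN2, which senses uncharged tRNA, is encoded by EIF2AK4. This gene had 63.7, 62 and 66.5 CPM in the Enz-R libraries, against 106, 108 and 109 CPM in the parental libraries. The groups stood well apart (log2 fold change -0.75 ± 0.059, adjusted p = 3.33e-08). Genes of the other eIF2 kinases were lower too. EIF2AK2, which encodes PKR, the kinase for double-stranded RNA, had 19.2 ± 0.968 CPM in Enz-R and 39 ± 0.628 CPM in parental cells (SD, n = 3 each; -1.02 ± 0.072). EIF2AK1, which encodes the heme-regulated kinase HRI, had a log2 fold change of -0.61 ± 0.059, and EIF2AK3, which encodes PERK of the endoplasmic reticulum, of -0.26 ± 0.090.

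Several other stress genes of the response were lower in every Enz-R library. TRIB3, a pseudokinase that binds ATF4 and restrains it, had 94.3, 80.4 and 77.9 CPM in the Enz-R libraries, against 208, 203 and 222 CPM in the parental libraries. CHAC1, which breaks down glutathione and whose promoter holds the core, had 18.6, 17.5 and 16 CPM in the Enz-R libraries, against 41.8, 45 and 45.9 CPM in the parental libraries. Both were lower in every Enz-R library by a wide margin, TRIB3 with a log2 fold change of -1.32 ± 0.074 and CHAC1 with -1.34 ± 0.078 (adjusted p = 9.32e-10 and 1.36e-09). DDIT4, also called REDD1, an inhibitor of mTORC1, had 149.6, 167 and 162 CPM in the Enz-R libraries, against 309, 273 and 304 CPM in the parental libraries. SESN2, which inhibits mTORC1 when leucine is scarce, had 44.7, 39.4 and 40.1 CPM in the Enz-R libraries, against 61.9, 62.9 and 74 CPM in the parental libraries. Levels of DDIT4 were 1.85-fold lower (log2 fold change -0.89 ± 0.068, adjusted p = 2.55e-08) and those of SESN2 1.60-fold lower (log2 fold change -0.67 ± 0.080, adjusted p = 2.76e-06). STC2, a secreted glycoprotein induced by stress, had 181, 162 and 147 CPM in the Enz-R libraries, against 261, 239 and 252 CPM in the parental libraries, and was 1.54-fold lower (log2 fold change -0.62 ± 0.074, adjusted p = 2.95e-06).

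A few stress genes moved the other way. DDIT3 (ENSG00000175197, chromosome 12, 57516588 to 57521737 on GRCh38), which encodes CHOP, a transcription factor linked to cell death under stress, had 83.4, 71.4 and 87.8 CPM in the Enz-R libraries, against 33.1, 31.3 and 36.8 CPM in the parental libraries. Every Enz-R library lay far above every parental one (log2 fold change 1.26 ± 0.084, adjusted p = 5.50e-09). NUPR1, a small stress-induced chromatin protein, had 514, 440.1 and 480.3 CPM in the Enz-R libraries, against 340.1, 281 and 289 CPM in the parental libraries, again without overlap (log2 fold change 0.66 ± 0.081, adjusted p = 4.14e-06). PPP1R15A, which encodes GADD34, the subunit that directs a phosphatase to eIF2, had 31.5, 32.8 and 36.3 CPM in the Enz-R libraries, against 30.6, 25.8 and 27.7 CPM in the parental libraries. Its rise was small (log2 fold change 0.25 ± 0.082, adjusted p = 0.0141), and it did not pass the threshold under 6 of the 15 alternatives tried. ATF3, a stress-induced partner outside the 45 genes, was higher as well (1.17 ± 0.071).

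DDIT3 shares 355 exon bases, or 27.2% of its exon length, with the synthetase gene MARS1 on the opposite strand. Strand use in the counting is not given in the sources used here, so reads from this stretch are uncertain. MARS1 was lower in Enz-R while DDIT3 was higher. DDIT3 had 4396 counts over the Enz-R libraries and 2331 over the parental libraries, while MARS1 had 8893 over the Enz-R libraries and 20201 over the parental libraries.

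The C/EBP partners of ATF4 were not called. CEBPG, which forms dimers with ATF4, stood at -0.043 ± 0.060 (adjusted p = 0.543), although its promoter holds the core. CEBPB, another dimer partner, had 52.9, 37.1 and 32.7 CPM in the Enz-R libraries, against 48.2, 46.5 and 46.8 CPM in the parental libraries. Enz-R replicate 1 was the highest of the 6 libraries and the other Enz-R libraries the lowest, and the gene was not called (log2 fold change -0.19 ± 0.12, adjusted p = 0.179). Without Enz-R replicate 1 it was called lower (log2 fold change -0.43, adjusted p = 8.3e-05). JDP2, a repressor of the AP-1 family, was not called (-0.069 ± 0.076). EIF4EBP1, the translation repressor 4E-BP1 and a known ATF4 target, was lower by a small amount (-0.17 ± 0.066, adjusted p = 0.0358). Its call was lost under 4 of the 15 alternatives, and its value ranged from -0.57 to -0.13. VLDLR, the very low density lipoprotein receptor, was lower as well (-0.39 ± 0.093), though not after a correction for GC content and length.

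**Figure D2:**
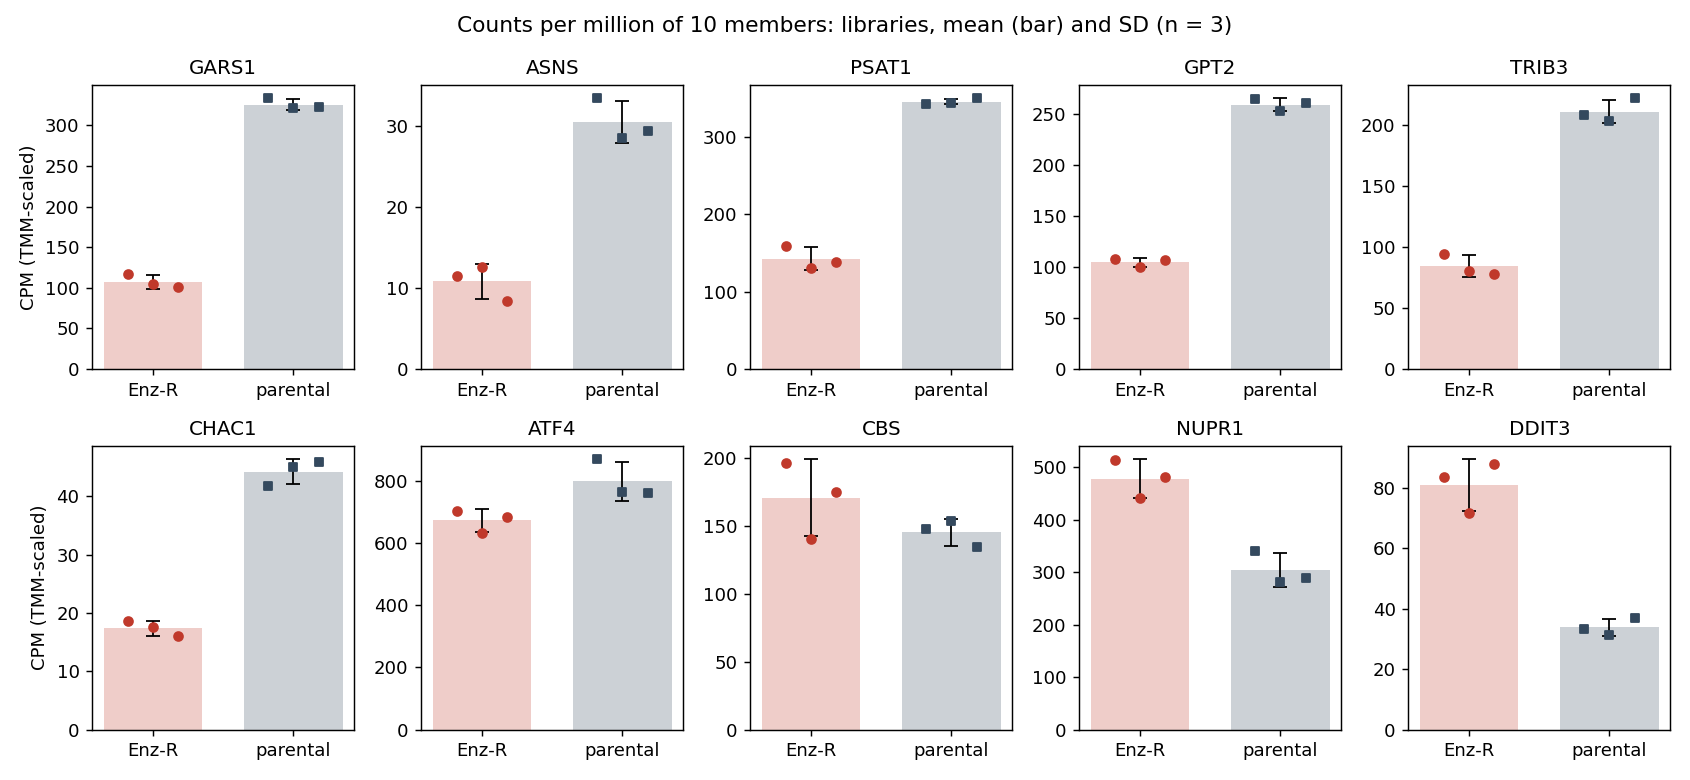
TMM-scaled CPM of 10 genes in the 3 Enz-R libraries (circles, left) and the 3 parental libraries (squares, right), with the mean as a bar and the SD as an error bar; each panel has its own axis from 0. The first 7 panels are lower in Enz-R, CBS overlaps between the groups, and NUPR1 and DDIT3 are higher in Enz-R.

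Enzymes of amino acid and folate metabolism had the lowest median of the 3 groups. Of 12 genes, 11 were lower in Enz-R, and the exception was CBS. The median log2 fold change was -1.04, and 6 of the 12 were at least 2-fold lower. Among all tested genes, 32.3% were lower, and 8.66% were lower by at least 2-fold. Summed over the 12 genes, the level was 1845 ± 53.5 CPM in Enz-R and 2919 ± 67.3 CPM in parental cells (SD, n = 3 each), so Enz-R had 63.2% of the parental sum.

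The serine pathway starts from a glycolytic intermediate and needs PHGDH, PSAT1 and PSPH in turn. PSAT1, the aminotransferase step, had 159, 131 and 139 CPM in the Enz-R libraries, against 343, 344 and 349.8 CPM in the parental libraries (log2 fold change -1.27 ± 0.072, adjusted p = 9.41e-10). PSPH, the phosphatase that releases serine, had 35.8, 30.4 and 30.3 CPM in the Enz-R libraries, against 68.3, 69.2 and 75.5 CPM in the parental libraries (log2 fold change -1.14 ± 0.077, adjusted p = 6.70e-09). Both were lower without overlap, and by more than 2-fold between the group levels. PHGDH, the first enzyme of the pathway, was lower by a smaller amount (-0.44 ± 0.068). Per kilobase it was the most abundant of the 12 enzyme genes, with 200.3 in Enz-R and 272 in parental cells (CPM per kilobase).

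Serine then feeds the mitochondrial folate cycle. SHMT2, which splits serine into glycine and a folate-bound carbon unit, had 238, 231 and 209 CPM in the Enz-R libraries, against 427, 427 and 446 CPM in the parental libraries (log2 fold change -0.94 ± 0.066, adjusted p = 9.28e-09). MTHFD2, the mitochondrial dehydrogenase of that unit, was lower too, with a log2 fold change of -0.52 ± 0.068. ALDH1L2 (ENSG00000136010, chromosome 12, 105019784 to 105084577 on GRCh38), which oxidises the unit to carbon dioxide, had 0.777, 0.706 and 0.777 CPM in the Enz-R libraries, against 4.74, 4.51 and 4.93 CPM in the parental libraries. This was the largest fall among the 45 genes (log2 fold change -2.64 ± 0.20, adjusted p = 2.84e-08), at low counts, with 41 counts over the Enz-R libraries and 327 over the parental libraries. Outside the 12, a paralog of MTHFD2, MTHFD2L, was higher (0.53 ± 0.12). MTHFD1L, the mitochondrial formate-releasing enzyme, was lower (log2 fold change -0.91 ± 0.10).

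ASNS (ENSG00000070669, chromosome 7, 97852118 to 97872542 on GRCh38), which makes asparagine and is among the best known ATF4 targets, had 11.4, 12.6 and 8.41 CPM in the Enz-R libraries, against 33.4, 28.5 and 29.4 CPM in the parental libraries. All Enz-R libraries lay far below all parental ones (log2 fold change -1.49 ± 0.12, adjusted p = 3.81e-08). Of its exon bases, 44.6% are shared with an unnamed transcript on the same strand (AC079781.5), which had 52 counts over all 6 libraries. GPT2, the mitochondrial alanine aminotransferase, had 107, 99.7 and 107 CPM in the Enz-R libraries, against 265, 253 and 261 CPM in the parental libraries (log2 fold change -1.31 ± 0.060, adjusted p = 9.16e-11). CTH, cystathionine gamma-lyase, which makes cysteine, had 9.36, 6.59 and 8.02 CPM in the Enz-R libraries, against 18.5, 17.9 and 18.1 CPM in the parental libraries (log2 fold change -1.17 ± 0.12, adjusted p = 6.03e-07). For GPT2 and CTH too, no Enz-R library reached the parental range.

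CBS, the enzyme just before CTH in that route, was the only one of the 12 to be called higher. It had 196, 141 and 175 CPM in the Enz-R libraries, against 148, 153 and 134 CPM in the parental libraries. The groups overlapped, since Enz-R replicate 2 lay below 2 of the 3 parental libraries, and the call was weak (log2 fold change 0.24 ± 0.10, adjusted p = 0.0414). It was lost under 9 of the 15 alternatives tried. CBS has a near-identical copy, CBSL, so its counts are uncertain; CBSL had 287 counts over the Enz-R libraries and 423 over the parental libraries.

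Proline synthesis from glutamate uses ALDH18A1 and then PYCR1 in mitochondria. ALDH18A1 had 128, 111 and 122 CPM in the Enz-R libraries, against 180.3, 182 and 196 CPM in the parental libraries (log2 fold change -0.63 ± 0.067, adjusted p = 9.91e-07). PYCR1, the final reductase, was lower, with a log2 fold change of -0.52 ± 0.065. Both lay below the parental range in every Enz-R library. OAT, which links ornithine to the same intermediate, was higher (0.56 ± 0.067).

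Synthetase genes of the cytosol were lower as a group. Of 17 genes, 15 were lower in Enz-R, none was higher, and HARS1 and QARS1 were not called. The median was -0.52, 8 of the 17 were lower by at least 1.5-fold and 2 by at least 2-fold. Among all tested genes, 32.3% were lower and 32.4% higher. Falls of at least 1.5-fold made up 17.6% and those of at least 2-fold 8.66%, so the 2-fold count was near the share over all genes. Their summed level was 2725 ± 109 CPM in Enz-R and 4288 ± 112 CPM in parental cells (SD, n = 3 each), so Enz-R had 63.6% of the parental sum.

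The largest fall was that of GARS1 (ENSG00000106105, chromosome 7, 30594681 to 30634033 on GRCh38), the glycyl-tRNA synthetase, a single gene that serves both cytosol and mitochondria. It had 117, 104 and 101 CPM in the Enz-R libraries, against 333, 321 and 323 CPM in the parental libraries, a 3.04-fold difference (log2 fold change -1.60 ± 0.067, adjusted p = 3.37e-11). GARS1-DT, the transcript that runs from the same region on the other strand, was not called (0.065 ± 0.073). SARS1, the seryl-tRNA synthetase, had 145, 142 and 125 CPM in the Enz-R libraries, against 285, 279.7 and 298 CPM in the parental libraries (log2 fold change -1.07 ± 0.068, adjusted p = 3.60e-09). CARS1, the cysteinyl-tRNA synthetase, had 65, 58.6 and 61.4 CPM in the Enz-R libraries, against 119.9, 112 and 117 CPM in the parental libraries (log2 fold change -0.91 ± 0.063, adjusted p = 7.95e-09). For these genes too, every Enz-R library lay far below every parental one.

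The bifunctional EPRS1, which charges both glutamate and proline, had 218, 189 and 181 CPM in the Enz-R libraries, against 352, 359 and 377 CPM in the parental libraries. The tyrosyl-tRNA synthetase gene YARS1 had 181, 171 and 159 CPM in the Enz-R libraries, against 313, 299 and 309 CPM in the parental libraries. MARS1, for methionine, had 171, 164 and 152 CPM in the Enz-R libraries, against 289.7, 276 and 311 CPM in the parental libraries. All of these were lower without overlap, with log2 fold changes of -0.88 ± 0.073, -0.85 ± 0.064 and -0.84 ± 0.067 (adjusted p = 5.38e-08, 2.08e-08 and 3.55e-08). AARS1, for alanine, had 354, 360.2 and 355 CPM in the Enz-R libraries, against 639.6, 600.2 and 665 CPM in the parental libraries. WARS1, for tryptophan, which interferon also induces, had 78.9, 71 and 69.2 CPM in the Enz-R libraries, against 118, 114 and 112 CPM in the parental libraries. The log2 fold change was -0.83 ± 0.064 for AARS1 and -0.65 ± 0.064 for WARS1, again with every Enz-R library below every parental one. Per kilobase, AARS1 had the highest level of the 17, 102 in Enz-R and 183 in parental cells (CPM per kilobase).

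Smaller falls were found for IARS1 (-0.52 ± 0.060), TARS1 (-0.51 ± 0.073), LARS1 (-0.50 ± 0.063), VARS1 (-0.42 ± 0.065), NARS1 (-0.32 ± 0.061), RARS1 (-0.21 ± 0.058) and KARS1 (-0.18 ± 0.068), which charge isoleucine, threonine, leucine, valine, asparagine, arginine and lysine. KARS1, which like GARS1 serves both compartments, lost its call under 5 of the 15 alternatives. QARS1, for glutamine, stood at -0.13 ± 0.062 (adjusted p = 0.0856). HARS1, for histidine, stood at 0.11 ± 0.058 (adjusted p = 0.106), with all Enz-R libraries slightly above the parental ones. HARS1 overlaps its mitochondrial paralog HARS2 head to head over 437 exon bases, and HARS2 stood at -0.16 ± 0.075 (adjusted p = 0.0795).

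In the cell, 7 of the 17 proteins belong to the multi-synthetase complex and 10 do not. Of the 7 genes of the complex, EPRS1, IARS1, LARS1, MARS1, QARS1, RARS1 and KARS1, 6 were lower, with a median of -0.50. Of the other 10, 9 were lower, with a median of -0.74. The share of all tested genes that were lower was 32.3%. Of the scaffold genes of the complex, AIMP2 was lower (-0.58 ± 0.069) and AIMP1 and EEF1E1 were not called. FARSA and FARSB encode the subunits of the phenylalanyl-tRNA synthetase, which lies outside the complex. FARSA was slightly lower (-0.24 ± 0.070) and FARSB was not called (0.11 ± 0.062).

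Genes for the synthetases of mitochondria gave a smaller median. Of 17 genes, 7 were lower, 1 was higher and 9 were not called, against 32.3% lower and 32.4% higher of all tested genes. Their median was -0.12. The median was -0.22 with total counts in place of TMM scaling, where that of all tested genes was -0.083, and -0.19 without Enz-R replicate 1. LARS2, for leucine, was the lowest (-0.89 ± 0.068), followed by FARS2, for phenylalanine (-0.59 ± 0.11), and PARS2, for proline (-0.51 ± 0.13). VARS2, for valine, was the 1 that was higher (0.38 ± 0.073), and was picked out after its value was seen. In 13 cases a cytosolic and a mitochondrial gene serve the same amino acid, and the log2 fold change was lower for the cytosolic gene in 10 of them. Of the 13 cytosolic genes 12 were called lower, and of the 13 mitochondrial genes 4. The difference between the lists was not tested.

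**Figure D3:**
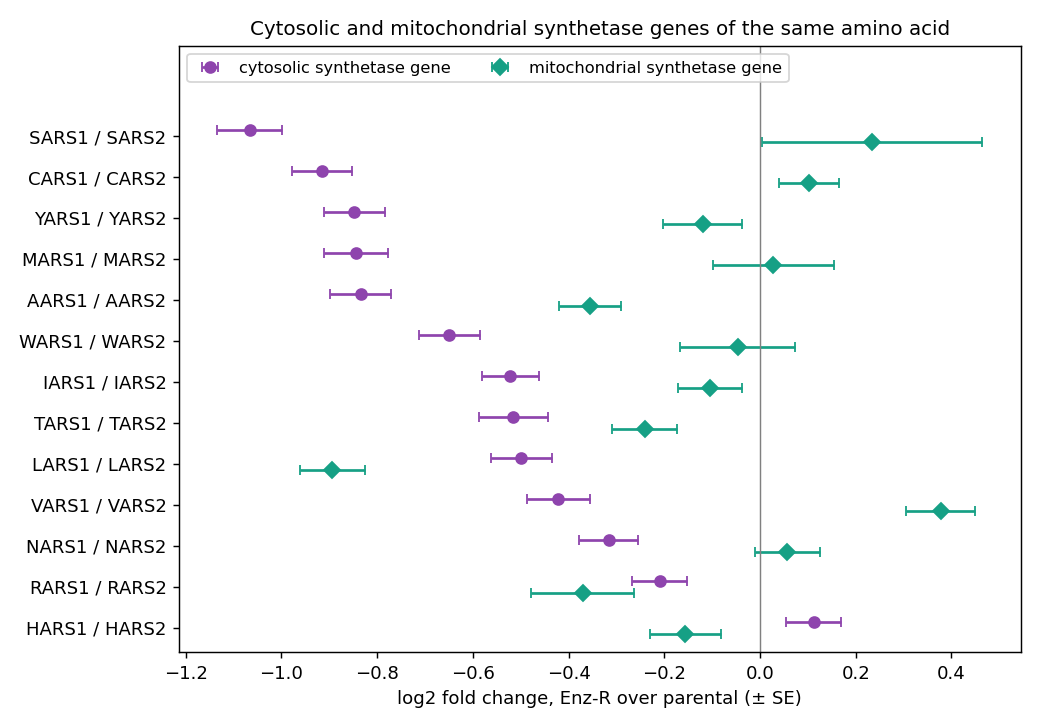
Log2 fold change of Enz-R over parental, with its SE, for the 13 amino acids that have separate cytosolic (circles) and mitochondrial (diamonds) synthetase genes. Cytosolic genes range from -1.07 for SARS1 to 0.11 for HARS1, and mitochondrial genes from -0.89 for LARS2 to 0.38 for VARS2.

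Other genes of the pathway were less uniform. The shares over all tested genes were 32.3% lower and 32.4% higher. Of 14 genes for the other eIF2 kinases, eIF2, its exchange factor eIF2B and related regulators, 9 were lower and 2 higher, with a median of -0.24, or -0.12 after the correction for GC content and length. EIF2S1, the eIF2 subunit that the kinases phosphorylate, had 102 ± 5.42 CPM in Enz-R and 198 ± 6.73 CPM in parental cells (SD, n = 3 each; log2 fold change -0.95 ± 0.062, adjusted p = 4.73e-09). EIF2S3, the subunit that binds initiator tRNA and GTP, was higher (0.75 ± 0.057). Of 13 other tested genes of serine, folate and proline metabolism 7 were lower and 4 higher, with a median of -0.22, and PRODH was too low to be tested. This median was -0.025 after that correction and -0.11 with a filter of 50 counts in 3 libraries. Among the lower ones was GLUD1, glutamate dehydrogenase (-0.80 ± 0.061).

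Of 13 tested transcription factor and stress partner genes, 4 were lower and 3 higher, against 32.3% and 32.4% of all tested genes. Their median was 0.042, and BATF was too low to be tested. The sign of this median turned, to -0.051 without Enz-R replicate 1, -0.087 after the correction for GC content and length, and -0.054 with total counts in place of TMM scaling. ATF6, a sensor of misfolded protein in the endoplasmic reticulum, was lower (-1.14 ± 0.071), as was CEBPZ (-0.84 ± 0.082). DDIT4L, the paralog of DDIT4, was higher (1.16 ± 0.14), while DDIT4 was lower. XBP1, the factor of another branch of the unfolded protein response, was not called (-0.086 ± 0.061, adjusted p = 0.226).

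**Figure D4:**
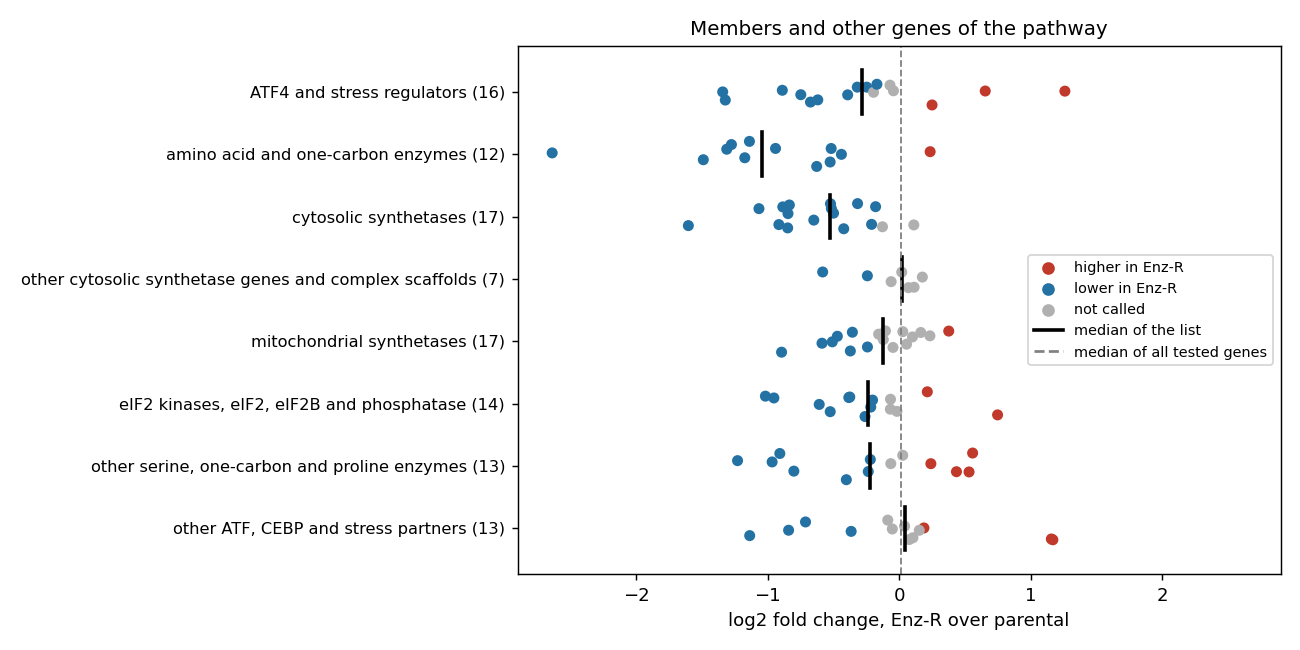
Log2 fold change of Enz-R over parental for each tested gene (points) of the 3 groups of genes described here, in the top 3 rows, and of 5 lists of other pathway genes, with the median of each list as a black bar and the median of all tested genes as a dashed line. Vertical scatter within a row carries no value. The enzyme row has the lowest median, -1.04, and the synthetase row the next lowest, -0.52.

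The 45 genes lie on 20 chromosomes. Their longest transcripts had a median length of 3180 bases, against 2983 bases for all tested genes, and a median GC content of 51.5%, against 48.8%. After a correction of each library for GC content and length, 36 of the 45 genes were called lower, with CEBPB added and VLDLR lost. With the mitochondrially encoded genes left out before scaling, 36 were also called lower. The part of the lower luminal marker sum in Enz-R in these results was not tested.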

How the data were processed

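The authors deposited a table of raw counts per gene for 6 libraries made from total RNA (150 bp paired-end reads, per the labels' protocols). The submitters' processing notes name HISAT2 and GRCh38. The sources used here do not give the counting tool, its annotation or its strand setting. Of the 59565 loci, 58676 have Ensembl identifiers and 889 are unannotated loci, which took 0.305% to 0.408% of a library. Positions, lengths and GC content are from GENCODE 29, and symbols from a list of current gene names.

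Enz-R and parental libraries, grouped by their titles, were set against each other in edgeR 4.0.16 (R 4.3.3) with filterByExpr, TMM, glmQLFit and glmQLFTest, and no covariate, with Benjamini-Hochberg adjustment over 19029 genes and a threshold of 0.05. The fit was also run on simulated counts. Far fewer genes changed in these than were called here, so the run does not give error rates for these data. Changes are Enz-R over parental on a log2 scale ± SE (derived from the F statistic) or TMM-scaled CPM. CPM per kilobase uses the longest annotated transcript and is approximate. Replicate pairs differed by more than counting error (chi-square per degree of freedom 4.31 to 10.5). The genes and lists were chosen with earlier results of these data known. Every library is given for genes called with at least a 1.5-fold change and for ATF4, EIF2AK4, DDIT3 and CBS; other pathway genes were named by size of change, at 5 CPM or more, or by role, and a few genes of these lists are not reported here by name. PPP1R15A, CEBPB and VARS2 were picked out after their values were seen. Alternatives, also run with DESeq2 1.42.0 and limma 3.58.1, are in the closing section. Promoter windows were searched with Python 3.11.15.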

Additional observations from a re-analysis of the deposited data

How the results depend on the processing

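Across 15 alternatives, 34 of the 45 genes kept their direction and their side of the threshold, and 637 of 675 comparisons of a gene with an alternative did. The other 11 were ATF4, CBS, CEBPB, CEBPG, EIF4EBP1, HARS1, JDP2, KARS1, PPP1R15A, QARS1 and VLDLR. The count of genes called lower, 36, ranged from 34 to 39 over the alternatives that use all libraries and from 33 to 38 when 1 library was left out. The 39 came with total counts in place of TMM scaling, where all tested genes shifted too. There 7094 of all tested genes were lower and 5208 higher, against 6150 and 6173 in the main fit. The count called higher, 4, was 5 with a filter of 50 counts in 3 libraries, where HARS1 was added. It was 2 with total counts in place of TMM scaling and 2 with DESeq2, and ranged from 2 to 4 when 1 library was left out. It was also 2 without Enz-R replicate 3, without parental replicate 2 and without parental replicate 3. In each setting with 2, PPP1R15A and CBS lost their calls. Enzyme genes called lower were 11 under every alternative. After regression on GC content and transcript length, CEBPG moved to 0.11 and JDP2 to 0.15, neither called, and VLDLR lost its call (-0.078, adjusted p = 0.471); the cause was not tested. Replicate numbers are shared between the groups. Deviations of same-numbered libraries had correlations from -0.0081 to 0.049, and those of other pairs ranged from -0.055 to 0.047. What same-numbered libraries have in common cannot be told from these values, with 3 libraries per group. With the replicate number as a block, 37 of the genes were called lower and 4 higher. ALDH1L2, with few counts, had the widest error of the 45 genes. Counts cannot show translation, protein levels or tRNA charging.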
